A study of Mus musculus with 6 samples.

Results

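The genes described here are those of translation initiation factors, chosen by symbol as all Eif2 to Eif6 names without the pseudogene suffix. They numbered 51 of the 55335 genes listed for each library: 16 Eif2, 14 Eif3, 16 Eif4, 4 Eif5 and 1 Eif6. Another 7 rows with the suffix were left out. RNA was measured by Smart-Seq2, a method that copies whole poly(A) transcripts from minute inputs, in 3 libraries of mouse 4-cell embryos treated with DRB and 3 libraries of control embryos (Con). DRB is a ribofuranosyl benzimidazole and a transcription inhibitor that acts on the kinases needed for elongation by RNA polymerase II. DRB embryos were held in KSOM medium with 20 μM of the inhibitor from 6 h after fertilization for 20 h, then washed and cultured for 26 h more. For Con, the labels give no vehicle, and strain, genotype and embryo number are given for neither group. The times at hand are those of DRB embryos, so whether both groups were collected at the same hour is not known here. The symbol rule also took in genes that are not subunits of an initiation factor, such as the Eif2ak kinases, the Eif4ebp inhibitors and Eif2c5, which is annotated as a lincRNA.

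Initiation brings the small ribosomal subunit, the initiator tRNA and an mRNA together. eIF2 carries the initiator tRNA, and eIF2B reloads eIF2 with GTP until a kinase phosphorylates eIF2 and so blocks the exchange. eIF3 is the large scaffold on the small subunit. eIF4E binds the mRNA cap, eIF4G bridges the cap to eIF3, eIF4A unwinds the leader, and the 4E-binding proteins compete with eIF4G for eIF4E. eIF5 and eIF5B act at the start codon and at subunit joining, and eIF6 keeps the large subunit from joining early. The early mouse embryo starts with mRNA and protein laid down in the oocyte and replaces them after its own genome is switched on.

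The files give FPKM, fragments per kilobase of transcript scaled to library size. The depth estimated from the steps of low values was 21500000 to 24900000 fragments per library. Genes of the mitochondrial genome took 23.9% to 26.4% of all FPKM in DRB libraries and 12.2% to 20.0% in Con libraries, and FPKM of other genes are read against that total. All 12 markers of the oocyte and cleavage embryo averaged at least 1 FPKM. Of 8 cumulus cell markers 2 did, Gja1 and Amhr2. Amhr2 stood at 19.8 to 28.2 FPKM in DRB and 17.9 to 23.4 FPKM in Con. Cyp19a1, Fshr, Has2 and Ptx3 were listed at 0 in all 6 libraries. The summed cumulus marker level was 143.7 to 275.7 FPKM in DRB and 213.0 to 387.1 FPKM in Con, most of it Gja1, which embryos also express. Sperm markers, 2 of 8 at that level with Tnp2 at 0 in all libraries, summed to 12.5 to 24.2 FPKM in DRB and 12.7 to 22.7 FPKM in Con. Blood markers, 5 of 8 at that level and none at 0 in all libraries, summed to 59.9 to 102.6 FPKM in DRB and 77.5 to 124.3 FPKM in Con. The part of these cells in the results was not tested. DRB replicate 1 stood apart, being the library farthest from its group's median for 33 of the 48 initiation factor genes tested (68.8%) and for 45.2% of all tested genes. Con replicate 1 was the farthest of its group for 52.1% of the 48 and for 36.9% of all tested genes.

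Most initiation factor genes were detected, at levels spread over several orders of magnitude. Averaged over the 6 libraries, 3 genes stood at 1000 FPKM or more, 19 between 100 and 1000, 19 between 10 and 100, 7 between 1 and 10, and 3 below 1. Eif5, which stimulates GTP hydrolysis on eIF2, was the highest, with 2000.3, 2314.9 and 2439.7 FPKM in DRB replicates 1 to 3 and 2455.3, 3171.7 and 2730.7 FPKM in Con replicates 1 to 3. Eif2s2, the beta subunit of eIF2, came next at 1340.2, 1624.7 and 1630.7 FPKM in DRB and 1324.8, 1929.6 and 1670.0 FPKM in Con. Eif5 exceeded Eif2s2 in 6 of 6 libraries. Eif4e, the cap-binding protein, came after it with 856.2, 1273.7 and 1317.0 FPKM in DRB and 2328.3, 1389.1 and 1102.2 FPKM in Con, and it lay below Eif2s2 in 5 of 6 libraries. Only 4 of the 50 neighbouring pairs in the order of mean levels were ordered alike in all 6 libraries, so most neighbours cannot be ranked. The 5 most abundant genes, which also include Eif4g2 and Eif4a3, held 54.4% to 58.7% of the summed FPKM of the 51 in DRB and 50.1% to 58.6% in Con.

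**Figure D1:**
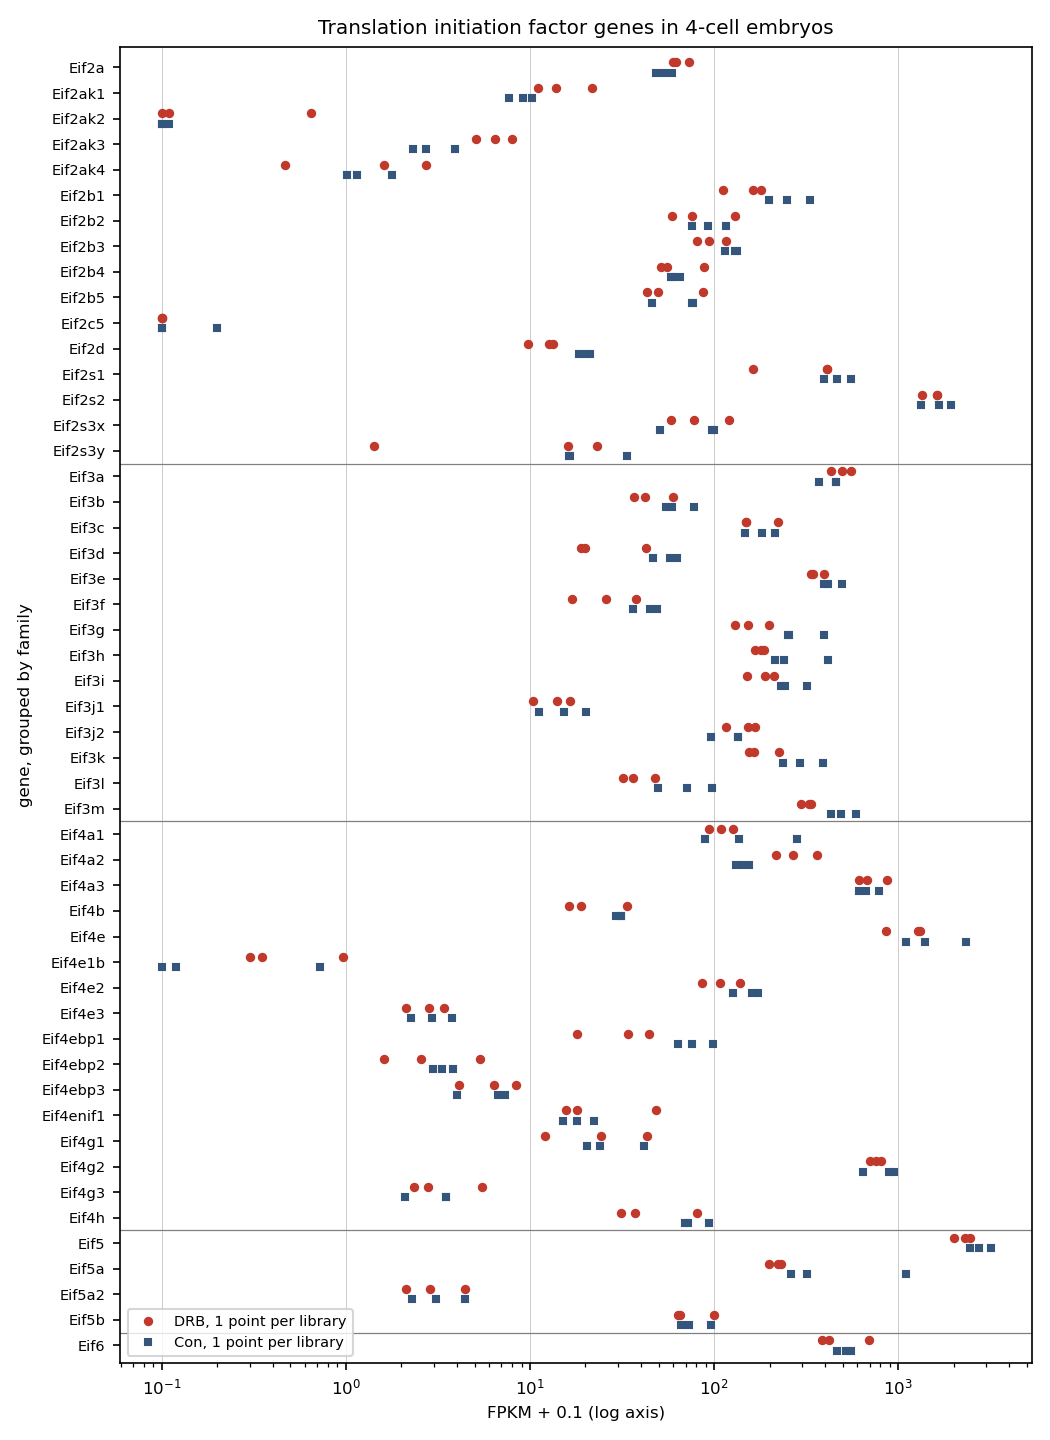
FPKM of the 51 genes on a log axis with 0.1 added, 1 row per gene and 1 point per library, DRB (red circles) above Con (blue squares) in each row, with families separated by lines. Eif5, Eif2s2 and Eif4e stand at the right, and Eif2ak2, Eif2c5 and Eif4e1b at the left below 1 FPKM.

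The comparison of DRB with Con asks how transcripts of the 4-cell embryo stand after 20 h with the inhibitor and the culture that followed. No initiation factor gene passed the test. With limma on log2(FPKM + 1), 0 of 48 genes tested had a Benjamini-Hochberg adjusted p below 0.05, and the lowest adjusted p was 0.0812. Among all 11893 genes tested 2.48% were called, 1.53% as higher and 0.95% as lower in DRB. An unadjusted p below 0.05 was reached by 10 of the 48, of which 2 were higher and 8 lower in DRB. That is 20.8%, near the 18.1% of all tested genes (7.53% higher and 10.5% lower). With median-of-ratios scaling 3 were higher and 4 lower (14.6%, against 17.5% of all genes), and with mitochondrial genes left out 3 were higher and 5 lower (16.7%, against 17.2%). The groups did not overlap for 16 of the 48 (33.3%), against 23.8% of all tested genes, with 4 genes above and 12 below Con, where 9.85% of all tested genes lay above and 13.9% below. With median-of-ratios scaling they did not overlap for 12 of the 48 (25%, against 23.3% of all tested genes), 4 above and 8 below. With mitochondrial genes left out the number was 13 of the 48 (27.1%, against 23.2%), 5 above and 8 below. The median log2 fold change of the 48 was -0.20, beside -0.09 for all tested genes, and 35 of the 48 had a negative sign (72.9%, against 56% of all tested genes). With median-of-ratios scaling these medians were -0.10 and -0.002, and with mitochondrial genes left out -0.07 and 0.03. Either setting turned the sign of 7 of the 48. With these bulk libraries fewer cells of a type and less RNA per cell cannot be told apart.

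The summed FPKM of the 51 genes was 10610, 11411 and 11616 in DRB replicates 1 to 3 and 15048, 13632 and 12629 in Con replicates 1 to 3. Every DRB library thus lay below every Con library. As a share of all FPKM the sum was 0.969% ± 0.0516 in DRB and 1.20% ± 0.0791 in Con (SD, n = 3 each). With mitochondrial genes left out of the total, the shares were 1.38%, 1.26% and 1.25% in DRB and 1.48%, 1.43% and 1.45% in Con, and the groups still did not overlap. By family, the ratio of mean sums, DRB over Con, was 0.744 for Eif5, 0.761 for Eif3, 0.860 for Eif4, 0.865 for Eif2 and 0.971 for Eif6. The Eif4 sums overlapped, at 3072, 3428 and 3406 FPKM in DRB replicates 1 to 3 and 4616, 3525 and 3375 FPKM in Con replicates 1 to 3. Those of Eif6 overlapped too, while those of Eif2, Eif3 and Eif5 did not. These ratios and family sums use FPKM as deposited. For the share of all 51 genes the ratio of means was 0.805, and 0.895 with mitochondrial genes left out of the total. No test was run on these sums. The divisors of median-of-ratios scaling were 1.11, 0.984 and 0.899 in DRB replicates 1 to 3 and 1.14, 1.05 and 1.03 in Con replicates 1 to 3. Divided by these, the sum of the 51 genes in DRB replicate 3 lies above that in Con replicate 3. The groups therefore overlap with that scaling. The sums of Eif2 and Eif5 then overlap too, while those of Eif3 stay apart.

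**Figure D2:**
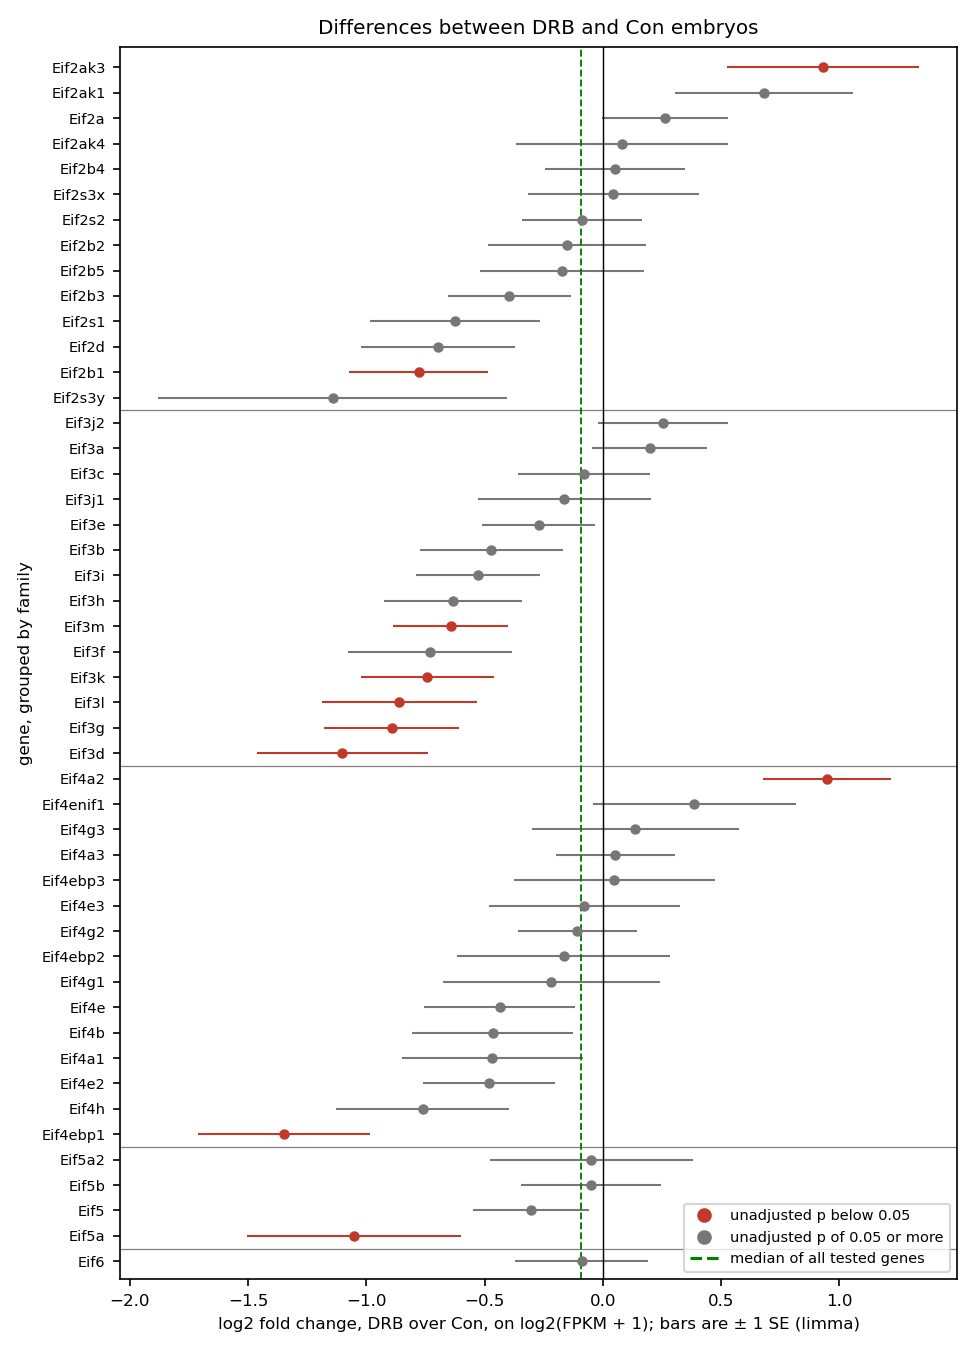
log2 fold change of the 48 tested genes, DRB over Con on log2(FPKM + 1), with bars of 1 SE from limma, grouped by family, and a dashed line at the median of all tested genes (-0.09). Red points mark the 10 genes with an unadjusted p below 0.05, from Eif4ebp1 at -1.35 to Eif4a2 at 0.95, and none of them passed the adjustment.

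Promoter sequences are shown for Eif4a2, Eif3g and Eif3d, the 3 genes with the lowest unadjusted p for which RefSeq (GRCm38.p6) promoters were at hand. Each is the 250 bases before the annotated start, 5′ to 3′ on the gene's strand, with matches to the motifs listed after them in capitals. The windows are chr16:23107218-23107467 on the plus strand for Eif4a2, chr9:20898591-20898840 on the minus strand for Eif3g and chr15:77970825-77971074 on the minus strand for Eif3d.
Eif4a2: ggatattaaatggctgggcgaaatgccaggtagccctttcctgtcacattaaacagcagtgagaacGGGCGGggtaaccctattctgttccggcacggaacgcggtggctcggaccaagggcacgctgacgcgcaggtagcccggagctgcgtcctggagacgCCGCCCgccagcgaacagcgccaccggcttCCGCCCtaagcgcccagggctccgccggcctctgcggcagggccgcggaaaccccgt
Eif3g: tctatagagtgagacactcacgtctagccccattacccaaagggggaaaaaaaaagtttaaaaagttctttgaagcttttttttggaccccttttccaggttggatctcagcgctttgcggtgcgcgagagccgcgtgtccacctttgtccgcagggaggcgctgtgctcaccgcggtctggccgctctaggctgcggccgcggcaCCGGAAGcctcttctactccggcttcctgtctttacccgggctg
Eif3d: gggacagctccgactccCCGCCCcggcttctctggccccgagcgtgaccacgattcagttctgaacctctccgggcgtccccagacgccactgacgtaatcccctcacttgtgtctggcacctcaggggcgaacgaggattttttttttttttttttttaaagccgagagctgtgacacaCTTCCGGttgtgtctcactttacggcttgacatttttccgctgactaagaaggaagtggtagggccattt
Both strands were searched for the E-box CACGTG, the GC box GGGCGG, the TATA box TATAAA, the cAMP response element TGACGTCA and the ETS core CCGGAAG; none of these overlapped in the 3 windows. Eif4a2 held 3 GC boxes, Eif3g an ETS core, and Eif3d a GC box and an ETS core. Promoters were found for 40 of the 51 genes, as 53 entries. A GC box was in 64.2% of these entries, against 55.3% of the 9926 entries of tested genes and 32.7% of all 32851. The E-box was in 18.9%, against 8.52% of entries of tested genes and 6.02% of all, with Eif3f, Eif3k, Eif4a1, Eif4e, Eif4g1, Eif4h, Eif5a and Eif5a2 holding it. The ETS core was in 17.0%, against 15.4% and 6.91%, the TATA box in 7.55%, against 6.84% and 12.4%, and the cAMP response element in 0 of 53, against 2.70% and 1.55%. These are matches of letters and no more.

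Among the eIF2 genes the 3 subunits of the tRNA carrier did not share 1 pattern. Eif2s1, the alpha subunit that the kinases phosphorylate, had 163.5, 408.1 and 409.3 FPKM in DRB replicates 1 to 3 and 552.2, 463.3 and 394.1 FPKM in Con replicates 1 to 3. DRB replicate 1 was the low library, and the other DRB values lay within the Con range. Its log2 fold change was -0.63 ± 0.36 SE (limma adjusted p 0.393), and -0.19 without DRB replicate 1. For Eif2s2 it was -0.09 ± 0.25 SE, with overlap (limma adjusted p 0.899).

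The gamma subunit has an X-linked and a Y-linked gene in mouse. Eif2s3x had 121.1, 58.1 and 77.4 FPKM in DRB and 100.4, 51.0 and 96.8 FPKM in Con. Eif2s3y had 1.32, 23.0 and 16.0 FPKM in DRB and 16.4, 33.4 and 16.1 FPKM in Con. The groups overlapped for both, and Eif2s3y was low in DRB replicate 1 alone. Its log2 fold change was -1.14 ± 0.74 SE with all libraries (limma adjusted p 0.455) and -0.10 without DRB replicate 1, against -1.79 without DRB replicate 2. Eif2s3y made up 1.08%, 28.4% and 17.2% of the 2 gamma genes' summed FPKM in DRB and 14.0%, 39.6% and 14.3% in Con. The other Y-linked genes listed, Ddx3y, Uty and Kdm5d, also had their lowest DRB value in replicate 1. Ddx3y had 2.52, 3.39 and 6.37 FPKM in DRB and 4.38, 10.59 and 5.13 FPKM in Con. Uty had 0.65, 1.57 and 2.23 FPKM in DRB and 2.26, 4.20 and 1.73 FPKM in Con. In these genes replicate 1 stood less far below the other DRB libraries, as a ratio, than for Eif2s3y. Kdm5d had 0.08, 0.75 and 0.54 FPKM in DRB and 1.04, 1.44 and 0.27 FPKM in Con and was not tested. The sexes of the embryos are not in the labels.

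The eIF2B subunits, which form the exchange factor, were all expressed. Eif2b1, the alpha subunit, had 111.2, 162.1 and 180.1 FPKM in DRB and 333.3, 249.5 and 198.9 FPKM in Con. The groups did not overlap, and the log2 fold change was -0.78 ± 0.30 SE (unadjusted p 0.023, limma adjusted p 0.194). With median-of-ratios scaling the groups of Eif2b1 overlapped, and its unadjusted limma p was 0.0602. It was below 0.05 in 3 of the 6 fits without 1 library. Eif2b2, Eif2b3, Eif2b4 and Eif2b5 had log2 fold changes of -0.15, -0.39, 0.05 and -0.17, with limma adjusted p of 0.472 to 0.951, and their groups overlapped. Eif2b2, Eif2b4 and Eif2b5 were highest in DRB replicate 1, while Eif2b1 was lowest there.

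Eif2ak3 encodes PERK, the eIF2 kinase of the endoplasmic reticulum. It had 7.91, 5.00 and 6.32 FPKM in DRB and 2.23, 2.63 and 3.81 FPKM in Con. All DRB values lay above all Con values, and the log2 fold change was 0.93 ± 0.40 SE (unadjusted p 0.0419, limma adjusted p 0.254). Eif2ak1, the heme-regulated kinase, had 21.5, 13.7 and 10.9 FPKM in DRB and 10.2, 7.55 and 9.04 FPKM in Con. Here too the groups did not overlap, but DRB replicate 3 was within 1 FPKM of Con replicate 1, and the limma adjusted p was 0.374. Exons of Eif2ak3 share bases with Gm43292 (up to 221), and those of Eif2ak1 with Aimp2 (up to 487) and Ankrd61 (up to 89). All 3 lie on the other strand, and the library labels give no strand, so part of both kinases' values may belong to them. Eif2ak4, the GCN2 kinase of amino acid shortage, had 2.62, 1.51 and 0.37 FPKM in DRB and 1.05, 0.92 and 1.68 FPKM in Con, with DRB on both sides of Con. Eif2ak2, the PKR kinase activated by double-stranded RNA, had 0, 0.01 and 0.55 FPKM in DRB and 0.01, 0 and 0 FPKM in Con and was not tested. The alternative tRNA-binding factors were Eif2a and Eif2d. Eif2a, a single-chain protein unlike the subunits, had 72.7, 61.8 and 59.4 FPKM in DRB and 59.2, 48.2 and 53.6 FPKM in Con. The groups did not overlap, but DRB replicate 3 was only just above Con replicate 1. Eif2d had 9.71, 12.6 and 13.2 FPKM in DRB and 19.6, 21.1 and 18.3 FPKM in Con, apart from each other, with a limma adjusted p of 0.289. Eif2c5 was at 0.1 FPKM in Con replicate 1 and listed at 0 elsewhere.

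Most Eif3 genes, which encode the scaffold on the small subunit, had lower values in DRB. Of 14 tested, 12 had a negative log2 fold change (85.7%, against 56% of all tested genes), the median was -0.58, and 7 had all DRB values below all Con values (50%, against 13.9% of all tested genes below Con). An unadjusted p below 0.05 was reached by 5 of the 14, all lower in DRB (35.7%, against 10.5% of all tested genes lower), and 0 passed the adjustment. That count was 3 of 14 with median-of-ratios scaling, with mitochondrial genes left out or without limma's trend option. Without 1 library it was 2 to 6 of 14, the 2 without Con replicate 1 or DRB replicate 2. With median-of-ratios scaling the family's median was -0.47, with 5 of 14 wholly below Con (11.1% of all tested genes). Leaving out mitochondrial genes gave -0.43, with 4 of 14 wholly below Con (10.4% of all tested genes) and 1 wholly above. Without Con replicate 1 the median was -0.36, with 10 of 14 negative.

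Eif3g, which binds RNA, had 130.3, 151.8 and 197.7 FPKM in DRB and 393.0, 254.8 and 251.9 FPKM in Con. The groups were separate and Con replicate 1 stood highest. The log2 fold change was -0.89 ± 0.28 SE (unadjusted p 0.00947, limma adjusted p 0.128). Eif3d, which can itself bind the cap of some mRNAs, had 42.8, 19.9 and 18.8 FPKM in DRB and 63.0, 57.5 and 46.6 FPKM in Con. DRB replicate 1 lay close to the lowest Con value, and the other DRB libraries lay well below. The log2 fold change was -1.10 ± 0.36 SE (limma adjusted p 0.135), and -1.47 without DRB replicate 1 (limma adjusted p 0.0623). In 1058 bases an exon of Eif3d overlaps one of the antisense gene Gm17638, and the library labels give no strand, so reads of the pair cannot be told apart.

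Structural studies place 8 eIF3 subunits, a, c, e, f, h, k, l and m, in the scaffold's octamer of PCI and MPN domain proteins. Of these, 7 had negative log2 fold changes (87.5%, against 56% of all tested genes), and 4 had groups that did not overlap (50%, against 23.8%). These counts use FPKM as deposited. Eif3c, 1 of the 7, was at 0.03 with median-of-ratios scaling and 0.07 with mitochondrial genes left out. Eif3m had 294.7, 328.1 and 336.7 FPKM in DRB and 586.9, 491.6 and 431.1 FPKM in Con. Eif3k had 153.9, 165.0 and 226.0 FPKM in DRB and 388.3, 293.9 and 237.2 FPKM in Con. Eif3l had 47.5, 32.0 and 36.1 FPKM in DRB and 97.1, 49.4 and 70.7 FPKM in Con. Each of these 3 had its highest value in Con replicate 1 and no overlap between groups, with log2 fold changes of -0.64, -0.74 and -0.86 (unadjusted p 0.0225, 0.023 and 0.023, limma adjusted p 0.193, 0.194 and 0.194). With median-of-ratios scaling their unadjusted limma p was 0.066, 0.0604 and 0.032. It was below 0.05 in 3, 2 and 2 of the 6 fits without 1 library, and for none of them without Con replicate 1. For Eif3h and Eif3f, the MPN subunits, the log2 fold change was -0.63 and -0.73 (limma adjusted p 0.284 and 0.296), Eif3h without and Eif3f with overlap. Eif3h was at -0.35 without Con replicate 1 and Eif3f at -0.45 without DRB replicate 2.

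The other subunits had log2 fold changes nearer to 0. Eif3a, the largest subunit by protein, had 429.0, 556.9 and 495.1 FPKM in DRB and 371.5, 460.0 and 457.7 FPKM in Con, and its log2 fold change was 0.20 ± 0.24 SE (limma adjusted p 0.735). On the same log2 scale Eif3c and Eif3e differed by -0.08 and -0.27 (limma adjusted p 0.917 and 0.609). Eif3b and Eif3i, which sit with Eif3g, had -0.47 and -0.53 (limma adjusted p 0.451 and 0.318), Eif3b with overlap and Eif3i with all DRB values below all Con values. The genes of this complex were not at equal levels, although FPKM are per length. In each library the highest Eif3 gene, Eif3a or Eif3m, stood 29.4 to 44.5 times above the lowest, Eif3j1. The next lowest by mean was Eif3f, at 26.8 ± 10.3 FPKM in DRB and 43.2 ± 6.55 FPKM in Con (SD, n = 3). Eif3j1 and Eif3j2, copies that encode the loosely bound j subunit, stood at 13.5 ± 3.04 and 145.0 ± 26.1 FPKM in DRB and at 15.4 ± 4.46 and 121.6 ± 22.4 FPKM in Con (SD, n = 3). Reads of such copies may be split between them, and exons of Eif3j1 share bases with Spg11 on the other strand. Both levels, and the range that rests on Eif3j1, are therefore uncertain.

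**Figure D3:**
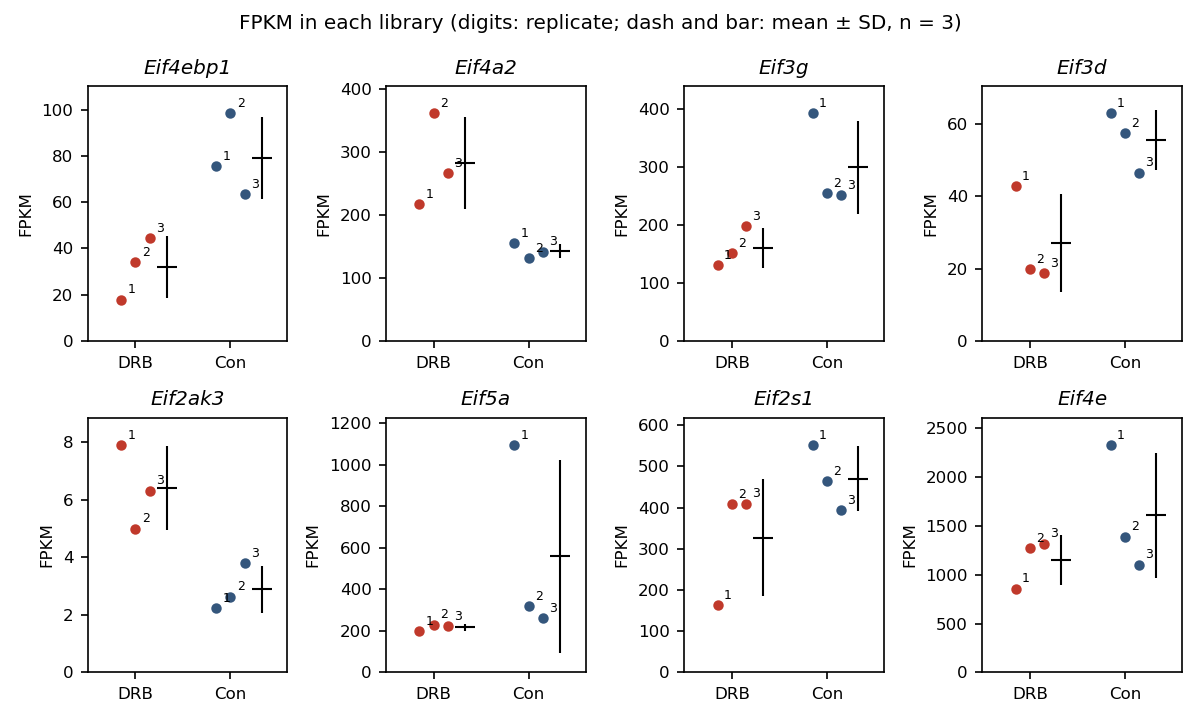
FPKM of 8 genes in each library, DRB left of Con, with the replicate number beside each point and a black dash and bar for the mean ± SD of 3 libraries. Eif4ebp1, Eif4a2, Eif3g, Eif3d, Eif2ak3 and Eif5a show no overlap between groups, while Eif2s1 and Eif4e overlap, and Con replicate 1 stands far above the rest for Eif5a (1095.6 FPKM).

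In the Eif4 family the lowest p-values belonged to a cap inhibitor and a helicase paralog, in opposite directions. Eif4ebp1 on chromosome 8 (27260329 to 27276674, GRCm38) encodes the 4E-binding protein that mTOR phosphorylates. It had 17.9, 33.9 and 44.5 FPKM in DRB and 75.8, 98.5 and 63.6 FPKM in Con. The groups were separate, and the log2 fold change was -1.35 ± 0.36 SE (unadjusted p 0.00347, limma adjusted p 0.0812). Over the 6 fits without 1 library the log2 fold change was -1.62 to -0.99 and the limma adjusted p 0.0605 to 0.251. Eif4ebp2 and Eif4ebp3, the other 4E-binding proteins, were low. Eif4ebp2 had 5.25, 1.51 and 2.47 FPKM in DRB and 2.87, 3.22 and 3.70 FPKM in Con, and Eif4ebp3 had 8.33, 6.25 and 4.00 FPKM in DRB and 3.90, 7.26 and 6.57 FPKM in Con. Both overlapped, and Eif4ebp3 shares exon bases with another gene on its strand. The ratio of Eif4ebp1 to Eif4e FPKM was 0.0209, 0.0266 and 0.0338 in DRB and 0.0325, 0.0709 and 0.0577 in Con, with DRB replicate 3 above Con replicate 1.

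Eif4a2 on chromosome 16 (23107444 to 23114136, GRCm38) encodes 1 of the 2 eIF4A helicase paralogs of cap-dependent initiation. It had 217.4, 361.1 and 266.5 FPKM in DRB and 155.0, 131.7 and 141.5 FPKM in Con. Every DRB library stood above every Con library, and the log2 fold change was 0.95 ± 0.27 SE (unadjusted p 0.00475, limma adjusted p 0.0935). Its limma adjusted p was 0.0827 to 0.278 over the 6 fits without 1 library and 0.0546 with mitochondrial genes left out. Eif4a1, its paralog, had 93.3, 126.0 and 109.4 FPKM in DRB and 281.6, 89.2 and 136.3 FPKM in Con. Those groups overlapped (limma adjusted p 0.576), and Con replicate 1 was the high library. Eif4a2 made up 70.0%, 74.1% and 70.9% of the summed FPKM of the pair in DRB and 35.5%, 59.6% and 50.9% in Con. This share rests on a gene chosen for its low p and is given as a description. Exons of Eif4a2 share bases with small nucleolar RNA genes on its strand and with Rfc4 on the other strand, and exons of Eif4a1 with small nucleolar RNA genes, so part of these values may belong to them. Eif4a3, the helicase of the exon junction complex, had 870.6, 613.7 and 678.3 FPKM in DRB and 789.8, 614.7 and 669.9 FPKM in Con, and the groups overlapped.

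Eif4e had overlapping groups, and its log2 fold change was -0.44 ± 0.32 SE (limma adjusted p 0.522), with -0.13 without Con replicate 1, -0.24 without DRB replicate 1 and -0.67 without Con replicate 3. Eif4e2, a cap-binding protein that takes part in translational repression, stood at 110.7 ± 26.7 FPKM in DRB and 153.4 ± 23.7 FPKM in Con (SD, n = 3), and Eif4e3 at 2.68 ± 0.641 FPKM in DRB and 2.89 ± 0.757 FPKM in Con. Eif4e1b, an oocyte form of the cap-binding protein, had 0.25, 0.20 and 0.87 FPKM in DRB and 0.62, 0.02 and 0 FPKM in Con and was not tested. Eif4g2, a scaffold that lacks the eIF4E-binding part, had 705.0, 808.3 and 754.7 FPKM in DRB and 640.2, 885.7 and 949.4 FPKM in Con. It stood far above the classical scaffolds Eif4g1, at 26.5 ± 15.8 FPKM in DRB and 28.6 ± 11.3 FPKM in Con, and Eif4g3, at 3.46 ± 1.72 FPKM in DRB and 2.93 ± 0.817 FPKM in Con (SD, n = 3). The helicase cofactors Eif4b and Eif4h differed by -0.47 and -0.76 on the log2 scale (limma adjusted p 0.522 and 0.301). Eif4h had 80.3, 31.1 and 37.3 FPKM in DRB and 69.6, 72.3 and 93.3 FPKM in Con, so DRB replicate 1 was within the Con range and the others below it. Without DRB replicate 1 Eif4h was at -1.17 (limma adjusted p 0.0924) and Eif4b at -0.76 (limma adjusted p 0.221). Without DRB replicate 2 they were at -0.50 and -0.26. Eif4enif1, a shuttling partner of eIF4E, had 48.2, 18.0 and 15.7 FPKM in DRB and 15.1, 17.9 and 22.1 FPKM in Con, again with DRB replicate 1 apart.

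All 4 Eif5 genes had negative log2 fold changes, though only 2 of 4 were negative with median-of-ratios scaling or with mitochondrial genes left out. Eif5 itself had all DRB values below all Con values, by a narrow margin between DRB replicate 3 and Con replicate 1, and the log2 fold change was -0.30 ± 0.25 SE (limma adjusted p 0.57). Eif5a, the hypusine-bearing factor that helps peptide bonds form, had 198.7, 230.5 and 222.9 FPKM in DRB and 1095.6, 318.6 and 262.6 FPKM in Con. The DRB libraries were tightly grouped below Con, while Con replicate 1 stood several times above the other controls. The log2 fold change was -1.05 ± 0.45 SE (unadjusted p 0.0399, limma adjusted p 0.251), and it was -0.41 without Con replicate 1, with a limma adjusted p of 0.526. Eif5a2, its paralog, had 4.34, 2.78 and 2.03 FPKM in DRB and 2.98, 4.35 and 2.18 FPKM in Con. Eif5b, the subunit-joining GTPase, differed by -0.05 on the log2 scale (limma adjusted p 0.951). Eif6 had 693.1, 386.4 and 418.5 FPKM in DRB and 467.2, 521.3 and 554.8 FPKM in Con, so DRB replicate 1 lay above and the other DRB libraries below all Con libraries (limma adjusted p 0.907).

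**Figure D4:**
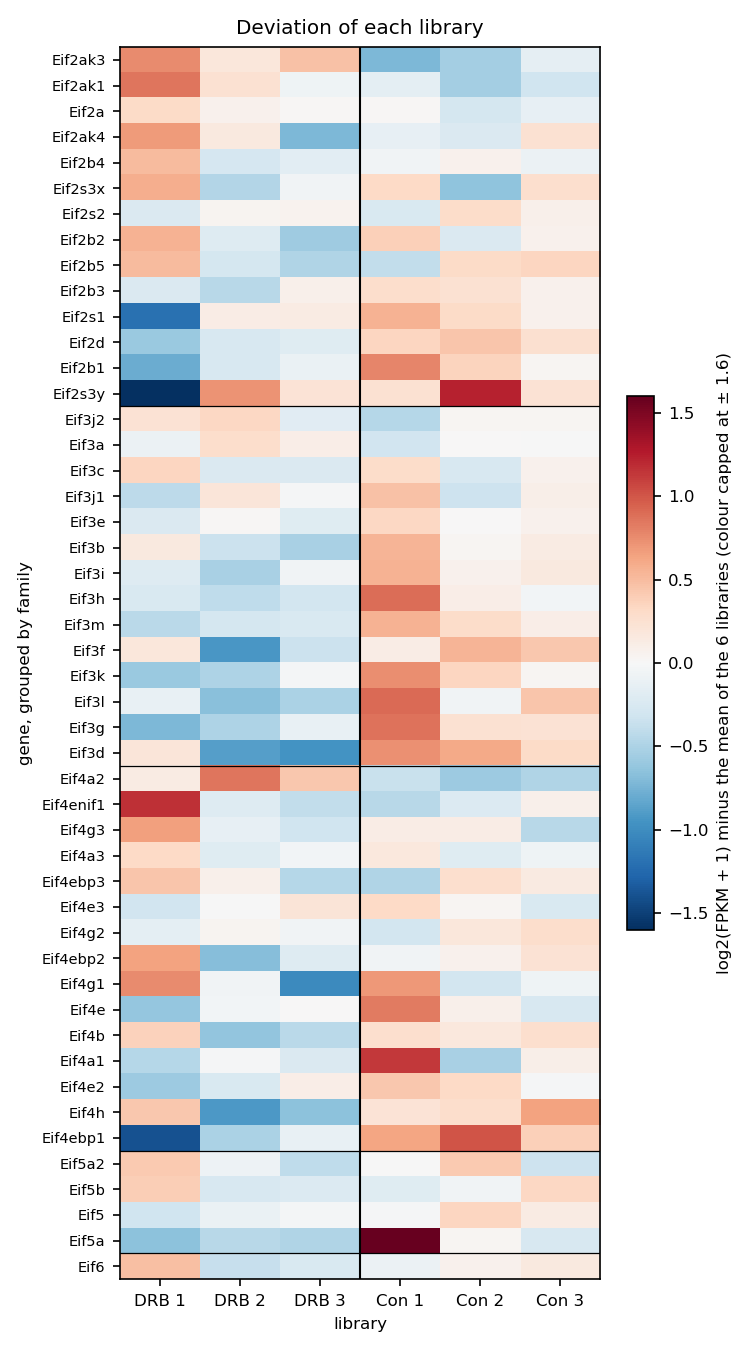
Heat map of log2(FPKM + 1) minus the mean of the 6 libraries for the 48 tested genes, DRB libraries left and Con libraries right of the line, with genes grouped by family and the colour capped at ± 1.6. DRB replicate 1 departs from DRB replicates 2 and 3 in many rows (Eif2s1, Eif2s3y, Eif4enif1, Eif4h, Eif6), and Con replicate 1 is the darkest red for Eif5a and Eif4a1.

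Other genes of translation were read from 4 lists in the same fit, with 1 gene called among them. Of all tested genes 2.48% were called, 18.1% had an unadjusted p below 0.05 and 23.8% had groups that did not overlap. In the list around eIF2 phosphorylation, 1 of 11 tested genes was called, Ppp1r15a, a subunit of the phosphatase that restores eIF2, at 81.9 ± 16.2 FPKM in DRB and 22.4 ± 4.04 FPKM in Con (SD, n = 3). Its log2 fold change was 1.82 ± 0.30 SE, at a limma adjusted p of 0.0142. It was not called without DRB replicate 1, without Con replicate 3 or with no filter on low values. One more gene of the list had an unadjusted limma p below 0.05, Impact, a regulator of GCN2, with 34.1, 52.3 and 35.8 FPKM in DRB and 70.8, 65.8 and 57.3 FPKM in Con (limma adjusted p 0.252). Among 7 start codon and re-initiation factors 0 were called and 2 had an unadjusted limma p below 0.05, both higher in DRB. They were Eif1b, with 60.2, 76.7 and 66.7 FPKM in DRB and 55.5, 26.6 and 32.6 FPKM in Con, and Eif1ad, with 156.0, 164.5 and 179.4 FPKM in DRB and 132.5, 96.5 and 85.5 FPKM in Con. Among 10 tested elongation and termination factors 0 were called and 3 had an unadjusted limma p below 0.05, 1 higher and 2 lower. All 3 encode eEF1B subunits. The higher one was Eef1b2, with 584.0, 438.5 and 402.7 FPKM in DRB and 286.2, 309.7 and 349.8 FPKM in Con. The lower ones were Eef1d, with 175.9, 121.4 and 146.2 FPKM in DRB and 403.9, 207.4 and 241.0 FPKM in Con, and Eef1g, with 108.9, 70.4 and 73.5 FPKM in DRB and 138.6, 148.1 and 137.5 FPKM in Con. In both lists the named groups did not overlap. Among 24 tested genes of cap binding control and scanning 0 were called and 1 had an unadjusted limma p below 0.05. It was Ncbp2, of the nuclear cap-binding complex, with 803.5, 960.8 and 1074.6 FPKM in DRB and 687.1, 624.3 and 637.4 FPKM in Con (limma adjusted p 0.268). Next came Gigyf2, part of a cap-binding repressor, with 78.8, 109.2 and 123.02 FPKM in DRB and 139.3, 156.3 and 156.0 FPKM in Con (limma adjusted p 0.304).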

How the data were processed

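Polyadenylated RNA of 4-cell embryos was amplified by Smart-Seq2 for paired-end Illumina HiSeq reads (labels' protocols). Per the submitters' processing notes, cutadapt 1.16, STAR and mm10 were used. Which program computed expression, and the gene models behind it, are details not given in the sources used here. Each deposited file holds FPKM, per the file headers. FPKM carries no counts, so no count test was run.

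Depth was estimated from genes of 400 to 800 bases with 1 transcript, whose low FPKM move in steps of 1 fragment; 73.8% to 81.8% of these values lay within 0.15 of a whole number. All 51 genes matched GENCODE M21 (GRCm38) by ID without version. Of these, 20 share exon bases with another gene.

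The filter kept genes reaching 1 FPKM in 3 or more libraries. Values of log2(FPKM + 1) went into limma 3.58.1 (R 4.3.3) with the trend option, group as the single term, two-sided tests and Benjamini-Hochberg correction over all genes, with calls made below 0.05. The fold changes set DRB over Con and understate changes of low genes. The fit was tested on simulated data. Whether replicates were separate cultures is not stated, so the p-values reflect spread among these libraries, which may be technical. The genes, lists and tests were chosen with earlier results of these data known. Values in every library are given for genes with an unadjusted p below 0.05 and the 2 most abundant of each family. They are also given for the Eif2ak and Eif4ebp genes and some paralogs. Eif2a, Eif2d, Eif4a1, Eif4a3, Eif4h, Eif4enif1, Eef1b2, Impact, Ddx3y, Uty and Kdm5d were added after their values were seen, as were the promoters and motifs. Python 3.11.15 (pandas 2.3.3, numpy 2.4.6, matplotlib 3.10.9) produced tables and plots.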

Additional observations from a re-analysis of the deposited data

How the results depend on the processing

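In every fit run, 0 initiation factor genes were called. The lowest adjusted p among them ranged from 0.0546, with mitochondrial genes left out, to 0.295 with no filter on low values. The number with an unadjusted p below 0.05 was 10, and it was 6 without the mean-variance trend and 4 to 10 without 1 library, the 4 without Con replicate 1. The median log2 fold change of the genes kept its sign, at -0.35 to -0.07. The Eif2 family's median turned positive with mitochondrial genes left out (0.03) and without DRB replicate 3 (0.05). Median-of-ratios scaling and leaving out mitochondrial genes each turned the sign of 7 of the 48 genes; the second moved the median of all genes from -0.09 to 0.03. The 10 genes with an unadjusted p below 0.05 kept their sign in every fit that tested them; Eif2ak3 was not tested with a mean of at least 5 FPKM. All genes called numbered 295, and 164 with a pseudocount of 0.1, 6 with no filter and 50 at adjusted p below 0.01. Without 1 library, 47 to 220 were called, the 47 without DRB replicate 1 and the 220 without DRB replicate 3. Of related translation genes 1 was called, Ppp1r15a, and 0 with no filter or at adjusted p below 0.01, and 0 to 1 without 1 library, the 0 without Con replicate 3 or DRB replicate 1. The cause was not tested. With the replicate block 171 genes were called, 0 of them initiation factors, and 9 initiation factors had an unadjusted p below 0.05. Deviations of same-numbered libraries correlated at -0.051 to 0.053, and no source says what the numbers mark. With 3 libraries a group, a gene that was not called is not shown to be unchanged.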
